A study of Mus musculus with 3 samples.

Results

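The surface Toll-like receptor genes Tlr1, Tlr2, Tlr4, Tlr5 and Tlr6, and the co-receptor and accessory genes Cd14, Ly96, Cd180 and Ly86, were followed in RNA sequencing libraries of microglia, the resident macrophages of the brain. The 9 genes were chosen by symbol from the 24411 genes tabulated, and all 9 were present in both the FPKM table and the table of estimated counts. The series held 3 libraries of 1 group, from brain of C57BL/6J mice aged 6 to 8 weeks per the labels. The animals carried Mir137loxP/loxP and a Tmem119-CreERT2 allele (cKO), in which tamoxifen activates a Cre recombinase. The recombinase is driven by Tmem119, itself one of the genes that mark microglia. Tamoxifen was injected on 7 days in a row starting at 7 to 8 weeks of age per the series design, and the labels give the treatment of all 3 libraries as a Pu.1 inhibitor. The name and dose of the inhibitor, and whether mice or isolated cells received it, are not stated in the labels. Mice with Mir137+/+;Tmem119-CreERT2 and knockout cells without the inhibitor were not analysed here, so neither the deletion nor the inhibitor could be compared with a control. The design text gives 4 mice and does not say which animals went into which library, so the spread between libraries may be technical.

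Toll-like receptors bind conserved microbial molecules through a curved ectodomain of leucine-rich repeats and signal through a cytoplasmic TIR domain. TLR2 pairs with TLR1 to bind triacylated lipopeptides and with TLR6 to bind diacylated ones, and TLR5 binds flagellin. TLR4 binds bacterial lipopolysaccharide only together with the small secreted protein MD-2, encoded by Ly96, and CD14 hands the lipid to that complex. CD180, also called RP105, resembles the ectodomain of TLR4 but has no TIR domain, and it reaches the cell surface with MD-1, encoded by Ly86. In the brain, microglia are regarded as the main cells that respond to lipopolysaccharide.

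Tlr1 and Tlr6 are near-identical over part of their length, which bears on how reads are divided between them, and the stretches that show this are given here. Both genes lie on the minus strand of chromosome 5 (GRCm38), Tlr1 at 64924679 to 64933563 and Tlr6 at 64952031 to 64960097, with 18467 bases and 0 annotated genes wholly between them. Over the aligned coding bases of their longest coding transcripts they were 74.8% identical, while the other 9 pairs among the 5 receptors were between 52.0 and 55.2% identical. The similarity was uneven: it was 58.0% over the first 1192 bases of the Tlr1 coding sequence and 90.2% over the rest, the second part. The sequence was divided by length and not at a border between ectodomain and TIR domain. The longest identical run, of 229 bases, spans chr5:64925537-64925765 in Tlr1 and chr5:64953828-64954056 in Tlr6. It is given 5′ to 3′ in the transcript direction:
Tlr1 and Tlr6: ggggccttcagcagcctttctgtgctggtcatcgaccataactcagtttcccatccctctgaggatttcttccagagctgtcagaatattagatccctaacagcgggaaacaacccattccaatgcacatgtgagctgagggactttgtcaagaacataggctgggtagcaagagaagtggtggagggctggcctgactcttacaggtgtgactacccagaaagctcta
The least alike stretch of 60 bases aligned without a gap has 36 mismatches, which are in capitals. It lies at chr5:64926477-64926536 in Tlr1 and chr5:64954768-64954827 in Tlr6:
Tlr1: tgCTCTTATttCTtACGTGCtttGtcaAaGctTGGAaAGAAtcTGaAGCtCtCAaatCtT
Tlr6: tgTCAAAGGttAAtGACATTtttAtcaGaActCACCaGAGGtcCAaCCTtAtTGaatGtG
Of 156 windows of 60 bases along the Tlr1 coding sequence, 28 were identical in Tlr6, and all 28 were centred in the second part. Identity was lower again at the end of that part, at 53.3% in the window centred at base 2355.

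**Figure D1:**
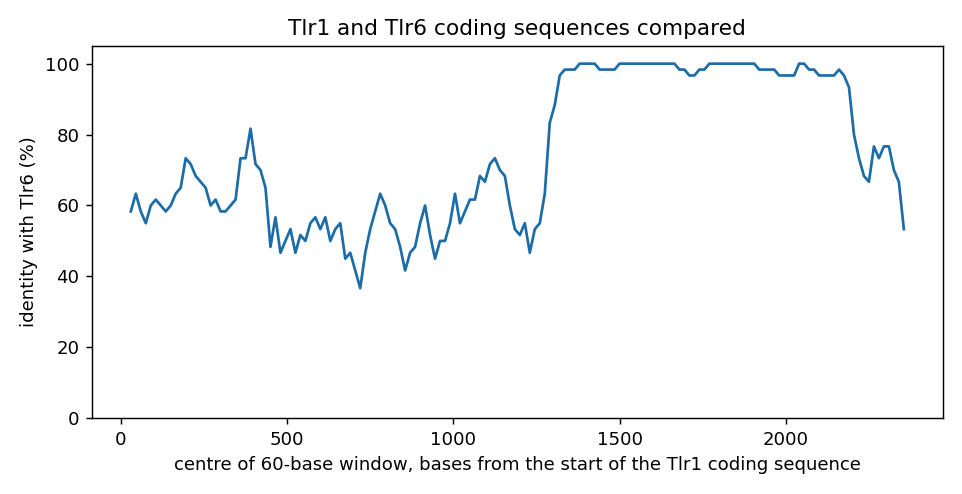
Identity of Tlr1 with Tlr6 in 60-base windows (vertical axis, percent) against the position of the window centre from the start of the Tlr1 coding sequence (horizontal axis, bases). Identity is as low as 36.7% within the first 1192 bases and reaches 100% in 28 of 156 windows.

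Tlr1 and Tlr6 were the only members with estimated counts that were not whole. Tlr1 had 1044.59, 937.74 and 1084.27 estimated counts and Tlr6 had 893.41, 716.26 and 911.73 in replicates 1, 2 and 3. Neither gene had a whole number in any library, but their sums were whole, 1938, 1654 and 1996. Of the 100-base stretches in the Tlr1 transcript, 8.85% also occurred in Tlr6, and 7.24% of those of Tlr6 occurred in Tlr1. For the other 7 transcripts 0 stretches of 50, 100 or 150 bases were found in a transcript of another gene. The division of reads between Tlr1 and Tlr6 is therefore an estimate of the authors' software, and the summed count is not affected by it.

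The regulators named in the labels were searched for in the sequence of the members. The mature miR-137 that the deleted gene encodes (chromosome 3, plus strand, RefSeq, GRCm38.p6) is shown with its seed, bases 2 to 8, in capitals:
mmu-miR-137-3p: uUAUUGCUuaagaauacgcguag
The 7-base complement of the seed was present in the annotated 3′ UTR of 0 of the 9 genes, against 10.2% of 21020 genes with a 3′ UTR. The longest 3′ UTRs of the members ran from 74 to 1391 bases, and among the 12372 genes in that range 4.2% held the site. The Pu.1 core motif GAGGAA was searched on both strands of the 300-base RefSeq promoters, from 250 bases before to 50 after the transcript start, which were at hand for 6 of the 9 genes. No promoter sequence was at hand for Tlr4, Cd14 and Ly96, which were not searched. The core motif occurred in 1 of the 6 searched, Tlr1, against 31.3% of all 27025 genes with a promoter. The longer form GAGGAAGT, which contains it, also occurred in Tlr1, against 3.69% of all genes. The Tlr1 match starts 23 bases before the RefSeq transcript start. It is shown within a window of 30 bases, chr5:64933563-64933592 (GRCm38.p6, minus strand), with the core motif in capitals:
Tlr1 promoter: attaaatgttgGAGGAAgtaggagcttgaa
A match is a string of letters and not evidence of binding, and the windows are short.

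All 9 genes were detected, that is, each had 1 FPKM or more in all of the libraries, as did 47.8% of all genes in the table. At a threshold of 10 FPKM 8 members passed, Tlr5 being the exception, against 26.7% of all genes. FPKM is the number of fragments divided by library size and by effective gene length, so that genes of different length can be set side by side. The level spanned a range of 91.0 times between the highest and the lowest member, from 683 ± 54.2 FPKM for Ly86 to 7.50 ± 0.85 FPKM for Tlr5 (mean ± SD, n = 3, as for all values in this form). Co-receptor genes held the top of the order: Ly86 and Cd14 alone made up 78.3 ± 1.82% of the summed FPKM of the 9 genes, and the 5 receptors 12.3 ± 0.87%. Of the 9 genes, 3 averaged at least 100 FPKM (Ly86, Cd14 and Cd180), as did 3.12% of all genes. Together the 9 genes took 0.181 ± 0.0065% of all counts.

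**Figure D2:**
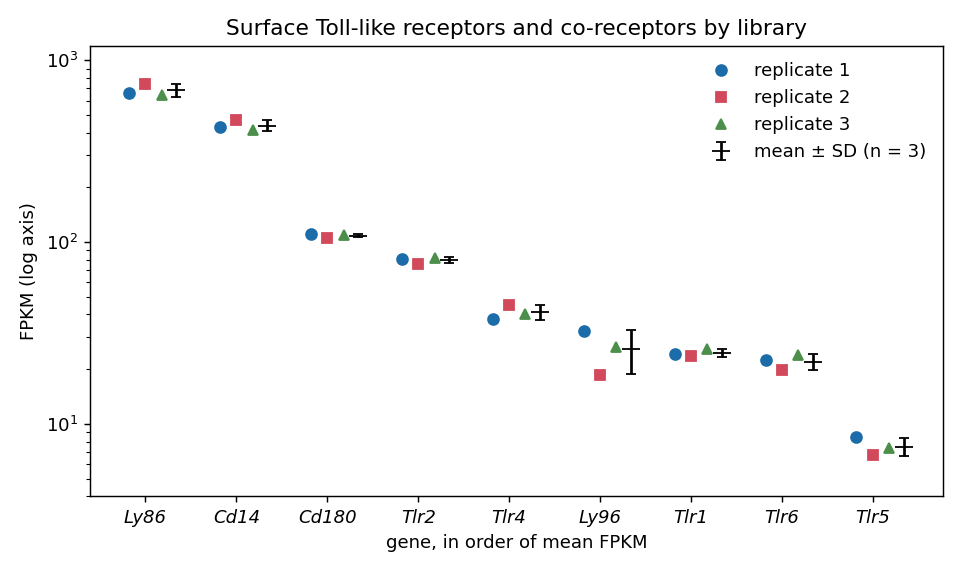
FPKM of the 9 genes (vertical log axis) in each library, in order of the mean, with the mean and SD over 3 libraries in black. The 3 co-receptor genes Ly86, Cd14 and Cd180 stand above all 5 receptors. Ly96 has the widest bar on this axis, and its library points run from 18.68 to 32.46 FPKM.

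Among the receptors, Tlr2, the shared chain of the lipopeptide receptors, was the highest. Tlr2 (chromosome 3, 83836272 to 83841767, minus strand) was at 80.52, 76.21 and 82.02 FPKM in replicates 1, 2 and 3, a mean of 79.6 ± 3.02 FPKM. Tlr1, its partner for triacylated lipopeptides, was at 24.22, 23.7 and 25.83 FPKM. Tlr6, its partner for diacylated lipopeptides, was at 22.42, 19.67 and 24.03 FPKM. Each partner was far below Tlr2 in every library, and the ranges of the partners overlapped each other. Tlr2 exceeded Tlr1 by 3.24 ± 0.077 times and Tlr6 by 3.63 ± 0.23 times within libraries. Tlr1 stood at 1.12 ± 0.074 times Tlr6, a ratio that rests on the estimated division of their reads. It also rests on the length used: the effective length of Tlr6, 2319 bases, was 63.1% of its annotated transcript, against 83.7% for Tlr1. Per annotated transcript length Tlr1 averaged 20.6 ± 1.17 and Tlr6 13.9 ± 1.40 FPKM, and their ranges no longer overlapped. Tlr5, the flagellin receptor (chromosome 1, 182954788 to 182976044, plus strand), was the lowest member, at 8.42, 6.74 and 7.35 FPKM, from 422, 309 and 351 counts. It stayed below every other member in every library.

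The lipopolysaccharide receptor complex was expressed very unevenly across its parts. Tlr4, the signalling chain (chromosome 4, 66827584 to 66930284, plus strand), was at 37.99, 45.23 and 40.23 FPKM. Cd14, which delivers lipopolysaccharide (chromosome 18, 36725067 to 36726798, minus strand), was at 429.99, 470.12 and 413.56 FPKM, a mean of 438 ± 29.1 FPKM. Cd14 was 10.7 ± 0.57 times as high as Tlr4 within libraries and ranked 167 of all 24411 genes by mean FPKM. Ly96, which encodes MD-2 (chromosome 1, 16688051 to 16709611, plus strand), was at 32.46, 18.68 and 26.34 FPKM, from only 180, 94 and 139 counts. Ly96 was below Tlr4 in all 3 libraries, at 0.854, 0.413 and 0.655 times its FPKM. The per-length level of Ly96 leans on a short effective length of 322 ± 1.39 bases, 50.9% of its 632-base transcript. Counted per annotated transcript length, Ly96 averaged 13.2 ± 3.56 and Tlr4 36.0 ± 3.23 FPKM.

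The CD180 complex was expressed above the TLR4 complex it resembles for both parts of the pair. Cd180 (chromosome 13, 102693558 to 102739629, plus strand) was at 110.77, 105.98 and 109.15 FPKM, and was 2.66 ± 0.29 times as high as Tlr4 within libraries. Ly86, which encodes MD-1 (chromosome 13, 37345208 to 37419036, plus strand), was at 661.06, 744.25 and 642.57 FPKM and ranked 103 of all genes. Ly86 exceeded Cd180 by 6.29 ± 0.63 times, whereas Ly96 was below Tlr4. Per exon union length, where all annotated exons of a gene count, Ly86 averaged 135 ± 10.4 and Cd180 49.3 ± 1.14 FPKM, a log2 difference of 1.43 against 2.64 in the deposited values. Exons of Cd180 share 182 bases with exons of Mast4 on the opposite strand, which was at 3.89 ± 0.71 FPKM. Strand use is not stated in the labels, so reads of that stretch cannot be told apart. The ordering of Ly86 above Cd14 held per effective length in all 3 libraries, at 1.56 ± 0.023 times. It turned round in CPM (counts scaled to library size, not divided by length), where Ly86 averaged 489 ± 38.6 and Cd14 605 ± 40.5.

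**Figure D3:**
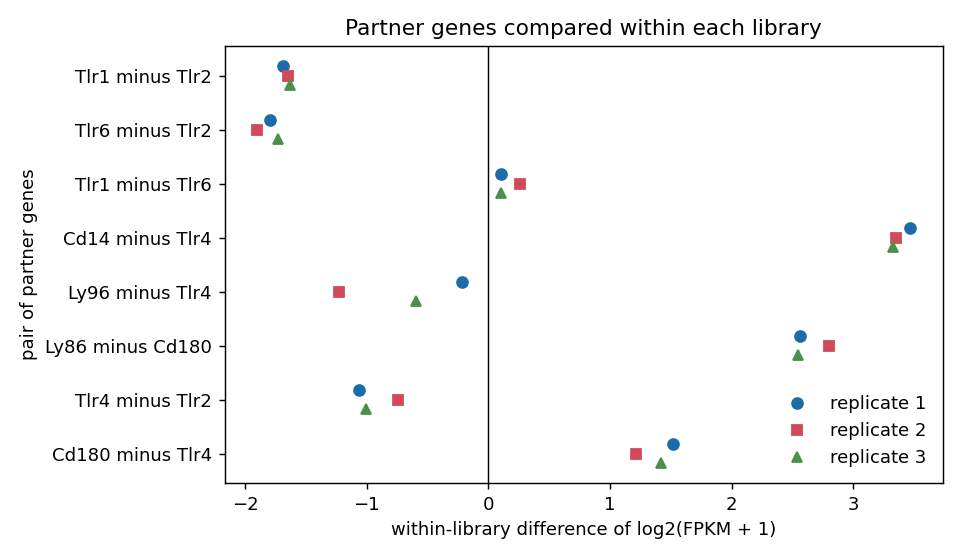
Difference of log2(FPKM + 1) between the genes of 8 pairs (horizontal axis), 1 point for each library. The points of a pair lie on the same side of 0 in every pair, and those of Ly96 minus Tlr4 are the most spread out, from -0.22 to -1.23.

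Neighbours in the order of mean FPKM were Ly86, Cd14, Cd180, Tlr2, Tlr4, Ly96, Tlr1, Tlr6 and Tlr5. The ranges over libraries overlapped for 2 of the 8 neighbouring pairs, Ly96 with Tlr1 and Tlr1 with Tlr6, so their levels were not separated by the spread between libraries in the deposited FPKM. Within libraries Tlr1 was above Tlr6 in 3 of 3, at 1.08, 1.20 and 1.07 times. The difference of log2(FPKM + 1) was tested for 13 pairs by flipping the signs of the library values (exact permutation, two-sided), which gave p = 0.25 for 12 pairs, unadjusted. That is the smallest value 3 libraries allow, so no pair could pass 0.05. The remaining pair, Ly96 minus Tlr1, had a difference of 0.04 ± 0.37 and p = 0.75 by the same exact test, with Ly96 the higher in 2 of 3 libraries.

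The members differed in how well the 3 libraries agreed. The counts of each gene were tested for equal shares of the TMM effective library sizes by chi-square, with Benjamini-Hochberg adjustment over 13246 genes. This called 7 of the 9 members different between libraries, and 41.4% of all genes tested. The test compares libraries and not conditions, and a high count makes a small difference callable. Cd180 was the steadiest, with a coefficient of variation of 2.22% in CPM, and was not called (adjusted p = 0.254). Tlr1 was not called either (adjusted p = 0.0937). Ly96 had the largest coefficient of variation, 27.0%, against 8.52% from counting alone (adjusted p = 0.00040). Of the 3149 genes with a mean CPM between 0.5 and 2 times that of Ly96, 7.94% varied more. Tlr4 varied by 9.08%, Cd14 by 6.69% and Ly86 by 7.88%, and their counting errors were 2.04, 1.00 and 1.12%. Among genes of similar abundance, 9.46% varied more than Tlr4, 17.0% more than Cd14 and 9.60% more than Ly86. The calls for Tlr1 and Tlr6 rest on rounded estimated counts, for which the counting error is not fully known.

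**Figure D4:**
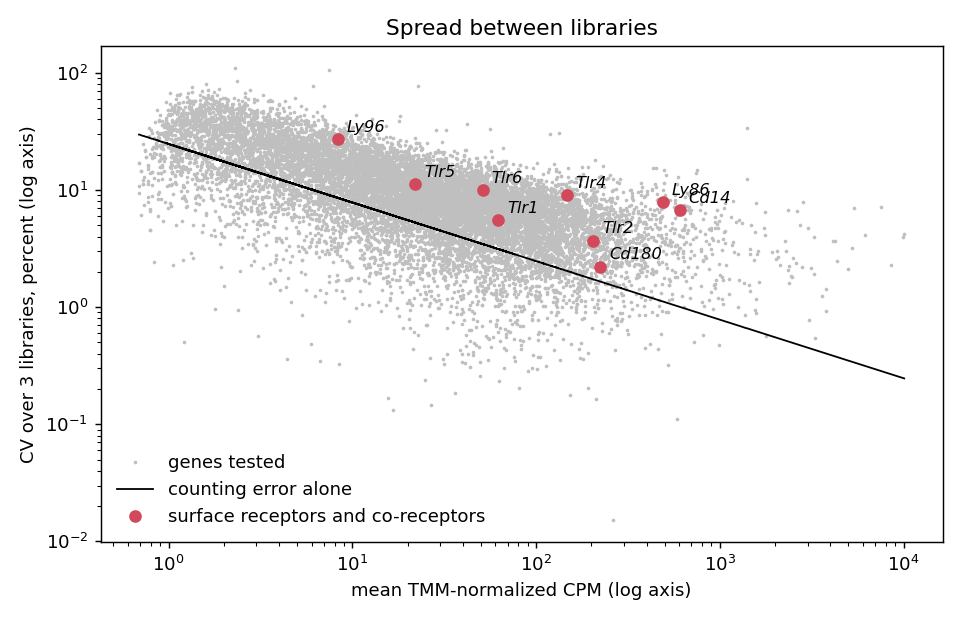
Coefficient of variation over the 3 libraries (vertical log axis, percent) against mean TMM-normalized CPM (horizontal log axis) for the 13246 genes tested in grey and the 9 members in red. The line is counting error alone. Cd180 lies close to the line at 2.22%, and Ly96 is the member with the highest value, 27.0%.

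Replicate 2 was the extreme library for all 9 members, and it was so in opposite directions. Tlr4, Cd14 and Ly86 were highest in replicate 2, at 1.16, 1.12 and 1.14 times the mean CPM of the other libraries. Tlr1, Tlr2, Tlr5, Tlr6, Cd180 and Ly96 were lowest there, at 0.941, 0.939, 0.857, 0.848, 0.965 and 0.632 times that mean. Over all genes tested, 35.9% were highest and 35.4% lowest in replicate 2. Of 9384 genes with at least 10 CPM, 95% had a ratio between 0.792 and 1.27, a range that holds every member but Ly96, whose mean of 8.33 CPM lies below that minimum. Without replicate 2 the test called 1 of the 9 members, Cd14, and 18.6% of genes. The summed CPM of the 7 microglial marker genes reported here was 11202 in replicate 2, 11149 in replicate 1 and 11048 in replicate 3. Over the full list of 8 microglial markers the sums were 21722, 21184 and 20725 in the same libraries. The summed CPM of the 10 neutrophil markers was 3325 in replicate 2, 3082 in replicate 1 and 3080 in replicate 3, and that of the 6 monocyte markers was 1253, 1152 and 1176 in the same libraries. Their part in the differences between libraries was not tested. In bulk RNA, fewer cells of a type and less RNA per cell cannot be told apart.

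**Figure D5:**
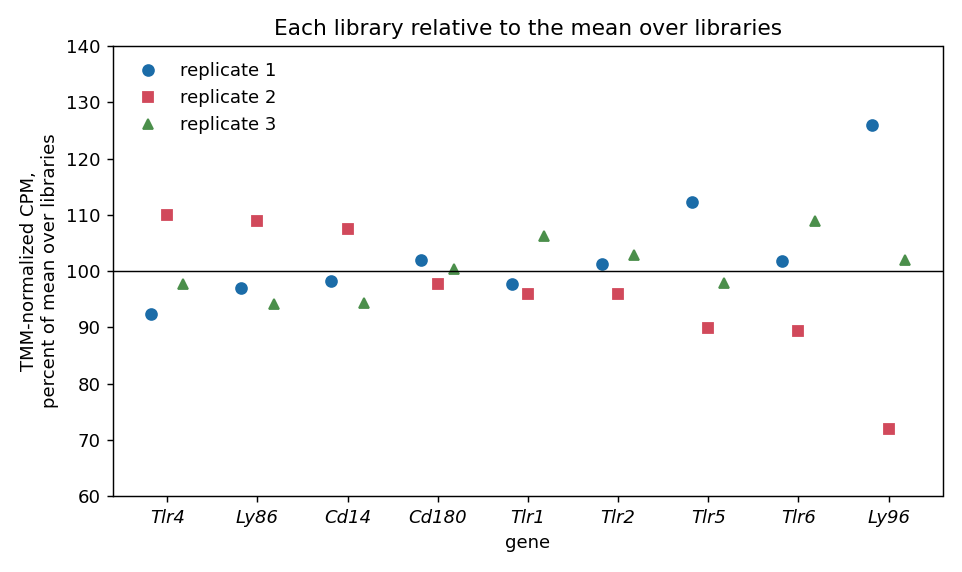
TMM-normalized CPM of each member in each library as a percent of its mean over the 3 libraries (vertical axis), with genes ordered by replicate 2 against the others. Replicate 2 is the highest point for Tlr4, Ly86 and Cd14 and the lowest for the other 6 genes.

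The depth of the libraries was 17180404, 15710750 and 16356125 estimated counts for replicates 1, 2 and 3. A gene with 0 counts could have been present at up to 0.175 to 0.191 CPM, which corresponds to 3 counts and covers counting error only. Mir137 had 0 counts in all 3 libraries, as did all 1174 microRNA loci in the table, so that value does not check the deletion. Spi1, which encodes Pu.1, was at 187 ± 4.65 FPKM, and Tmem119, which drives the recombinase, at 167 ± 10.1 FPKM. All 8 microglial markers were detected, and those reported here ran from P2ry12 at 1608 ± 7.79 to Sall1 at 134 ± 5.88 FPKM. Marker transcripts of other cell types that can carry these receptors were also detected. Whether those cells were present was not tested. All 10 neutrophil markers were detected, from S100a8 at 8800.0 ± 567 to Mpo at 11.7 ± 1.47 FPKM. All 6 monocyte markers, from Chil3 at 335 ± 13.3 to Itga4 at 5.08 ± 0.36 FPKM, and all 7 border macrophage markers, from Pf4 at 68.6 ± 6.61 to Siglec1 at 5.97 ± 0.61 FPKM, were detected as well. So were all 6 endothelial markers, from Ly6c1 at 1038 ± 66.6 to Cdh5 at 30.2 ± 1.87 FPKM, and all 5 astrocyte markers, from Slc1a3 at 101 ± 1.72 to Aldh1l1 at 2.73 ± 0.30 FPKM. Of 6 markers of B cells, a known site of CD180 and MD-1, 2 were detected. Cd79b led at 16.4 ± 2.96 FPKM, and Pax5 was lowest at 0.043 ± 0.075 FPKM. Of 5 dendritic cell markers 3 were detected, from Cd209a at 8.13 ± 0.57 downward, and Xcr1 was at 0.18 ± 0.040 FPKM. No marker in these lists was at 0 counts in all 3 libraries.

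Set beside the surface receptors, the Toll-like receptors of endosomes included the 2 most abundant receptor genes of the family. Tlr7, a sensor of single-stranded RNA, was at 356 ± 10.3 FPKM, Tlr13, a mouse sensor of bacterial ribosomal RNA, at 129 ± 1.89 and Tlr3, a sensor of double-stranded RNA, at 40.7 ± 1.81 FPKM. Tlr7 was above every surface receptor in every library, and Tlr2 lay between Tlr13 and Tlr3. Tlr11, a mouse receptor for profilin, was lowest with 3, 9 and 32 counts. Taking the level of a list as the median of log2(FPKM + 1) over its genes, the 5 surface receptors were at 4.68 ± 0.062 and the 7 other receptors at 5.19 ± 0.12, a difference of -0.51 ± 0.15 with the surface receptors below in 3 of 3 libraries. With the mean over genes in place of the median the difference was 0.20 ± 0.019, so the order of the lists depended on the summary. The surface receptors minus the 4 co-receptor genes gave -3.10 ± 0.097 log2 units. The level over all genes in the table was 0.95 ± 0.019.

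Over 8 lists of related genes 70 of 77 distinct genes were detected. The lists hold the other Toll-like receptors, folding and traffic factors, partners, ligands, adaptors, negative regulators and induced genes. They also hold signalling enzymes with their binding partners. The lists were chosen for their place in the pathway, and 47.8% of all genes passed the same threshold. All 7 folding and traffic genes were detected. Hsp90b1, the chaperone gp96 on which the folding of most Toll-like receptors depends, was at 451 ± 5.42 FPKM. Unc93b1, which escorts receptors out of the endoplasmic reticulum, was at 439 ± 8.84, Tmed7, a traffic factor for TLR4, at 149 ± 5.06, and Cnpy4 was lowest at 7.10 ± 1.10 FPKM. All 6 genes of ligand delivery and surface partners were detected. The integrin chains Itgam and Itgb2 led at 331 ± 4.95 and 204 ± 3.38 FPKM, Lbp, which encodes the serum protein that passes lipopolysaccharide to CD14, was at 23.3 ± 2.29 FPKM, and Tril, a TLR4 interactor, was lowest at 3.87 ± 0.21 FPKM.

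Of 6 adaptor genes 5 were detected, led by Pik3ap1 at 60.2 ± 2.25 FPKM and by Myd88, the adaptor that most Toll-like receptors share, at 51.0 ± 4.16 FPKM. Ticam2, the bridging adaptor of TLR4 known as TRAM, was at 18.3 ± 0.69 FPKM, and Sarm1 was lowest at 0.48 ± 0.17 FPKM. Of 18 kinases, ubiquitin enzymes and their binding partners 17 were detected. Tab2 led at 108 ± 6.79, with Ube2v1 at 61.4 ± 3.70 and Peli1 at 46.7 ± 3.49 FPKM. Ikbke was below the threshold at 0.86 ± 0.26 FPKM. All 9 negative regulators were detected. Inpp5d, the lipid phosphatase SHIP1, was at 212 ± 1.29, Tnfaip3, the ubiquitin-editing protein A20, at 142 ± 16.3, Tollip at 44.6 ± 1.24 and Socs1 at 2.51 ± 0.50 FPKM.

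Endogenous ligands and genes that these receptors are known to induce covered a wide range. Of 6 ligand genes 5 were detected. S100a8 and S100a9, which are also neutrophil markers, were at 8800.0 ± 567 and 4056 ± 210 FPKM, Hmgb1 was at 126 ± 7.08 and Tnc was lowest at 0.037 ± 0.029 FPKM. Of 18 induced genes 15 were detected, led by the chemokine genes Ccl3 at 1387 ± 70.3 and Ccl4 at 701 ± 8.85 FPKM and by Il1b at 189.9 ± 13 FPKM. Il12b was lowest at 0.22 ± 0.22 FPKM. Without untreated libraries these levels cannot be assigned to receptor signalling.

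The genes closest to each member in level and library pattern were found by the Euclidean distance between log2(FPKM + 1) over the 3 libraries. Among members averaging at least 10 FPKM the nearest genes were Cnot6l for Tlr1, P2rx7 for Tlr2, Chrac1 for Tlr4, Larp4b for Tlr6, H2-D1 for Cd14, Psme2b for Ly96 and Ptprc for Cd180. The distance was smallest for Tlr1, 0.024, and 91 genes lay within 0.1 of it. It was largest for Ly96, 0.22, with 0 genes within 0.1. Over 3 libraries many genes match by level alone, so the likeness is a description.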

How the data were processed

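RNA sequencing libraries of 1 group with 3 replicates were analysed. The authors deposited estimated counts without normalisation between libraries, and FPKM values, both per gene. Per the submitters' processing notes, the tools were RSEM, DESeq2 and STAR 2.7.9a, and the builds GRCm38 and mm10; neither settings nor the annotation are stated there. Of the deposited estimated counts 4.07% were not whole. There were 0 columns of other samples. Per the labels' protocols, total RNA was used. The strandedness was not given.

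Estimated counts were rounded, filtered and TMM-normalised with edgeR 4.0.16 (R 4.3.3), which left 13246 genes. These served for the chi-square test, the coefficients of variation and the CPM shares over all genes tested. CPM of named genes and marker sums used unrounded estimated counts, divided by the same TMM effective library sizes. The chi-square test was tried on data simulated with counting error alone, with changes added to some genes. That simulation held no further spread between libraries, so it does not show how the test behaves with such spread. A gene was detected at 1 FPKM or more in each of the 3 libraries, and the pseudocount was 1. Effective lengths came from counts, FPKM and library totals. Coordinates, transcripts and 3′ UTRs came from GENCODE M21 (GRCm38, 1-based), promoters and miRNA from RefSeq, and alignments from Biopython 1.88. Acod1 was found as Irg1. Named genes were the 9 members, the 3 highest and 1 lowest of each pathway list, the highest and lowest marker of each cell type, the nearest gene of each member, and Spi1, Mir137 and Tmem119. Some genes that these rules name are not reported here. Mast4 was named because it overlaps a member. The members and lists were chosen with earlier results of these data known. Alternatives were DESeq2 1.42.0 size factors, library totals, other thresholds, pseudocounts, units and lengths, and leaving out each replicate.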

Additional observations from a re-analysis of the deposited data

How the results depend on the processing

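No paired analysis was possible because the libraries form 1 group. All 9 members stayed detected at 5 FPKM, in TPM, in CPM and without each replicate, and 8 of 9 reached 10 FPKM in every library, as did 26.7% of genes. DESeq2 size factors, library totals and the absence of a filter left 7 members called different between libraries. The share of all genes tested that was called was then 41.4, 41.5 and 37.8%, against 41.4% in the main run. A threshold of 0.01 left 5 members and 3569 of the 13246 genes tested (26.9%), against 5485 genes in the main run. Leaving out a replicate gave 1 to 6 members and 2498 to 3780 genes (18.6 to 28.2% of those tested), lowest without replicate 2. Of 104 alternative pair differences 7 turned round. Ly86 minus Cd14 was -0.31 in CPM and -1.37 per exon union length, where all annotated exons of a gene count as its length, and Cd180 minus Tlr2 was -0.46 there. Ly96 minus Tlr1 was -2.79 in CPM, -0.64 per annotated transcript length, -1.13 per exon union length and between -0.15 and 0.22 with 1 replicate left out, the lowest without replicate 1. The level of receptors minus co-receptors was -2.62 with means in place of medians. Receptors minus endosomal receptors was 0.20 with means, and -0.71 without Tlr11 and Tlr12. These changes follow from the length, the summary or the genes in the list, and for replicates the cause was not tested. Lengths other than the effective one were tried after the data were seen. Member levels moved by less than 1 SD under TMM or DESeq2 scaling and without each replicate, and TPM multiplied them by 1.84 to 1.85. Length mattered more: per exon union length Ly86 averaged 135, Cd180 49.3 and Ly96 8.15 FPKM, against 683, 109 and 25.8 as deposited. Depth limits Ly96 and Tlr5 most, which rest on 94 to 180 and 309 to 422 counts.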
